A study of Mus musculus with 7 samples.

Results

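Meg3, Rian, Mirg, H19, Snhg14, Peg13 and Peg3 are imprinted genes, 6 with noncoding transcripts and 1, Peg3, that encodes a protein. Their RNA was counted in precipitates that an antibody to EZH2 pulled down from mouse embryonic stem cells (RNA immunoprecipitation followed by sequencing). EZH2 is the histone methyltransferase of Polycomb repressive complex 2, and by the title of the series this antibody, raised against the human protein, binds SAFB as well, an RNA-binding protein of the nucleus. The 7 libraries formed 3 groups: cells without Safb and its paralog Safb2 (SAFB DKO, clones 13 and 4, n = 2), cells without Ezh2 (EZH2 KO, clones 12 and 19, n = 2) and wild-type cells (WT, clones 20 and 44 and their parental line, n = 3). All were male CAST/B6 cells with an RMCE cassette at Rosa26, grown with fetal bovine serum, and all received doxycycline for 3 days. What the doxycycline induced was not given in the sources used here. Each replicate of a knockout was 1 clone, so the p-values measure the spread between clones. The CAST and B6 alleles were counted together, so the values do not show which parental allele an RNA came from.

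Members were chosen by name and measured on the authors' intervals. An interval belonged to a gene if it overlapped the GENCODE M21 span of the gene in mm10 on the same strand. All 7 genes passed the minimum of 10 counts summed over the WT libraries, as did 21418 genes of the whole table, and they held 84 of its 303889 intervals. By their names, the intervals come from peaks of the combined WT precipitates, so a comparison with WT leans towards falls. None of the 84 was on the authors' short list of 10043 peaks (3.3% of intervals), and 1, in Snhg14, was on their filtered list of 33671 (11.1%). Input RNA was not used here, so every level is an amount of precipitated RNA and not of expression. Fewer cells that hold an RNA and less RNA per cell cannot be told apart in such bulk samples.

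Imprinted genes are expressed mainly from the allele of 1 parent, and most lie in clusters governed by a differentially methylated control region. On chromosome 12, Meg3, Rian and Mirg follow each other in the Dlk1-Dio3 cluster on the strand that the maternal allele transcribes. Rian hosts box C/D small nucleolar RNAs in its introns, and Meg3, Rian and Mirg carry microRNA hairpins. H19 is the maternally expressed RNA beside Igf2 and gives rise to miR-675. Snhg14 is the long paternal transcript that runs from the Snrpn region over Ube3a. Peg13 lies within an intron of Trappc9 and is expressed from the paternal allele, and Peg3 encodes a zinc finger protein made from the paternal allele. Meg3 is among the RNAs studied most for contact with Polycomb repressive complex 2 in embryonic stem cells.

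The intervals of 4 members contained microRNA hairpins, 10 microRNA genes in 7 intervals. The microRNAs of the intervals on which the results turn are printed here with bases 2 to 8, the seed that pairs with targets, in capitals. The sequences are from RefSeq for GRCm38.p6. The libraries count longer RNA around the hairpin, and mature microRNAs were not measured here. In Meg3, the hairpin of miR-770 lay in the interval at chr12:109563338-109564649, with the 5p arm at chr12:109563710-109563731 on the plus strand.
mmu-miR-770-5p: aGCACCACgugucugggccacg
mmu-miR-770-3p: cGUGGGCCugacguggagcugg
In Rian, an intronic interval at chr12:109610992-109612837 held miR-341, with its 5p arm at chr12:109611521-109611541, and miR-1188.
mmu-miR-341-5p: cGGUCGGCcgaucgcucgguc
mmu-miR-341-3p: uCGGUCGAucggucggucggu
mmu-miR-1188-5p: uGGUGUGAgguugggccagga
In Mirg, the interval at chr12:109739420-109741776 held miR-377, and in H19 the single interval held miR-675, whose 5p arm lies at chr7:142577112-142577133 on the minus strand.
mmu-miR-377-3p: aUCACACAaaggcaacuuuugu
mmu-miR-675-5p: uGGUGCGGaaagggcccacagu
mmu-miR-675-3p: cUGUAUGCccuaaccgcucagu
No seed was shared among the 20 mature microRNAs of these intervals.

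Total counts ran from 15812517 to 18738499 in SAFB DKO, from 7050832 to 8353603 in EZH2 KO and from 19024702 to 21832539 in WT. The EZH2 KO columns carry another form of name than the rest. A sequencing run of their own and the genotype cannot be told apart, and the labels state no runs. The targeted genes had lost their counts where the labels say so. Safb was at 1.00 ± 0.581 CPM (edgeR's normalised counts scaled to library size) in SAFB DKO, 299 ± 21.2 in EZH2 KO and 200 ± 71.9 in WT, and Ezh2 was at 157 ± 19.5 CPM in SAFB DKO, 1.21 ± 1.48 in EZH2 KO and 180 ± 19.2 in WT (mean ± SD). The WT library of clone 44 had less Safb RNA, 117 CPM, than the parental line and clone 20 with 239 and 245. Markers of embryonic stem cells, 12 of 12 counted, summed to 3298 to 3493 CPM in SAFB DKO, 2435 to 2643 in EZH2 KO and 2745 to 2856 in WT. Of these 12 markers 9 rose and 2 fell in SAFB DKO (median log2 fold change 0.50), and 2 rose and 7 fell in EZH2 KO (median -0.67). Pou5f1 averaged 327 CPM in SAFB DKO, 94.2 CPM in EZH2 KO and 198 CPM in WT, while Sox2 and Zfp42 fell in SAFB DKO and rose in EZH2 KO. The part of these shifts in the results on the members was not tested. Of 10 fibroblast markers Col1a2, Postn, Lum and Dcn were at 0 or had no interval, and the list summed to at most 12.9 CPM in any library.

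Per kilobase of interval, H19 was the most abundant member in the WT precipitates, with 118 CPM per kb (range 106 to 137 over the 3 libraries). Peg3 followed with 91.5 (83.6 to 96.7) and Meg3 with 66.9 (60.5 to 75.5) CPM per kb in WT. Rian had 21.1 (20.1 to 22.3), Mirg 16.8 (16.3 to 17.1), Snhg14 12.1 (9.54 to 13.6) and Peg13 3.02 (2.79 to 3.24) CPM per kb in WT. No neighbours in that order overlapped in WT. The order of the means was the same in SAFB DKO and in EZH2 KO. In EZH2 KO, however, Snhg14 spanned 4.93 to 12.6 CPM per kb and overlapped both Mirg (8.44 to 9.44) and Peg13 (5.85 to 6.56).

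**Figure D1:**
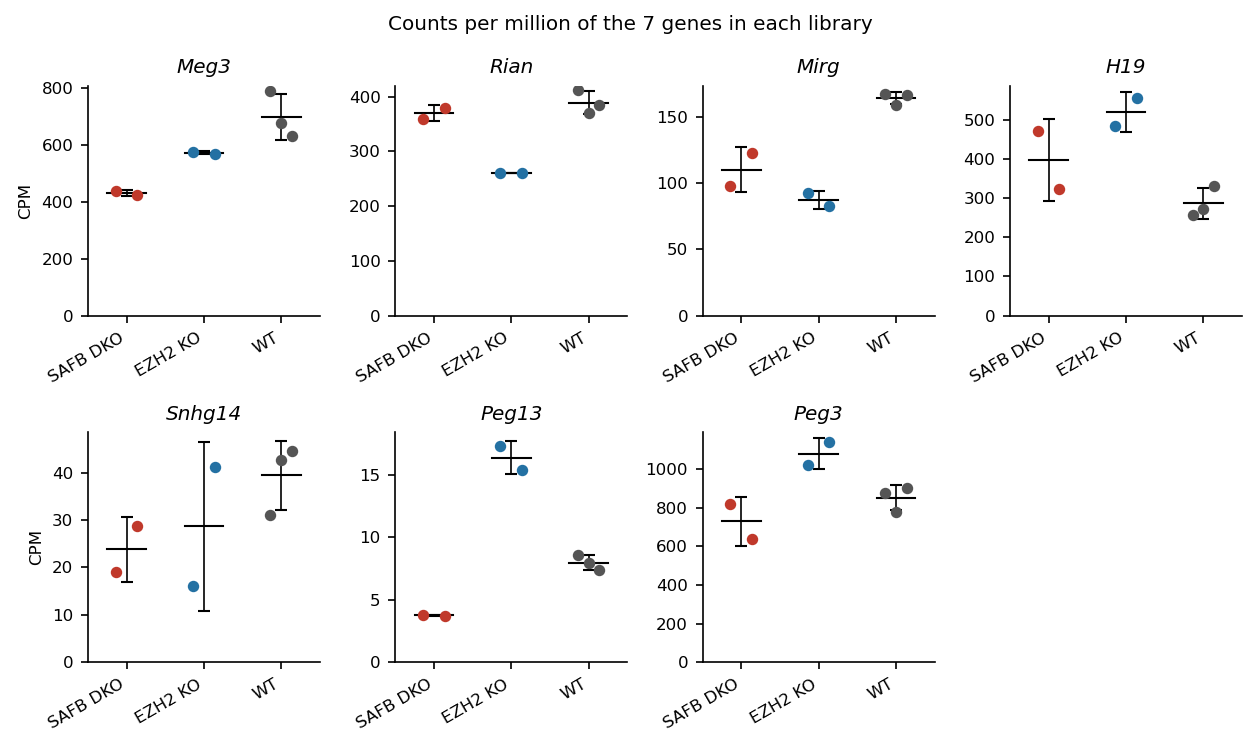
Normalised level of each member gene in CPM (library-size normalised counts) in SAFB DKO, EZH2 KO and WT; each dot is 1 library, the bar is the mean and the error bars are the SD. Meg3 lies at 440.5 and 423.3 CPM in SAFB DKO, below all WT libraries, and Peg13 lies lowest in SAFB DKO and highest in EZH2 KO.

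Against WT, 3 members fell and 1 rose in SAFB DKO, and 2 fell and 2 rose in EZH2 KO. Meg3, Mirg and Peg13 fell and H19 rose in SAFB DKO. In that comparison 50.2% of all 19518 tested genes changed, 35.2% of them downwards and 14.9% upwards as shares of all tested, so 4 of 7 members is near the background. In EZH2 KO, Rian and Mirg fell and H19 and Peg13 rose, where 47.9% of all tested genes changed, 21.8% down and 26.1% up. The median log2 fold change of the 7 members was -0.58 in SAFB DKO and -0.29 in EZH2 KO, against -0.25 and 0.04 for all tested genes. Both comparisons share the WT libraries. Between the knockouts, SAFB DKO against EZH2 KO, 3 members were lower in SAFB DKO (Meg3, Peg13 and Peg3) and Rian was higher, while 69.7% of all tested genes differed (41.7% lower and 28.0% higher).

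**Figure D2:**
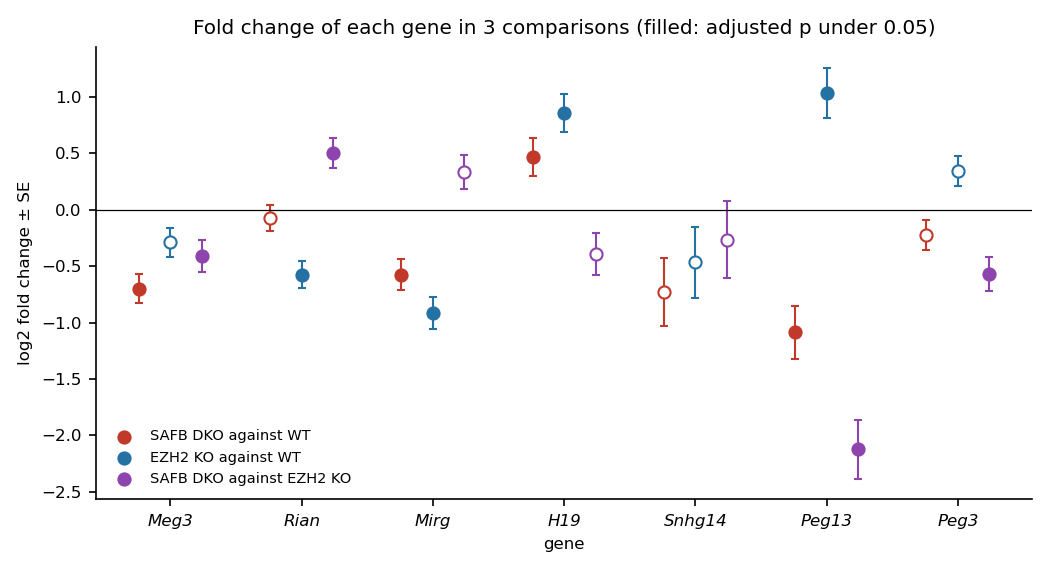
Log2 fold change of each member gene with its SE for SAFB DKO against WT, EZH2 KO against WT and SAFB DKO against EZH2 KO; filled points passed an adjusted p under 0.05. Peg13 has opposite signs in the comparisons with WT (-1.08 and 1.04), and H19 and Mirg have the same sign in both.

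Meg3 (ENSMUSG00000021268.17, chr12:109541001-109571726, plus strand), a nuclear long noncoding RNA, was lower in SAFB DKO. It had 440.5 and 423.3 CPM in SAFB DKO, 577.7 and 569.4 CPM in EZH2 KO, and 790.3, 677.1 and 634.1 CPM in WT. The ranges of the 3 groups did not overlap. Of 7 neural markers 6 were counted, with none for Neurog2, and their sums had the same order. They were 128 to 133 CPM in SAFB DKO, 164 to 187 CPM in EZH2 KO and 233 to 317 CPM in WT. The single markers did not all follow it: in each knockout against WT 3 fell, 1 rose and 2 were not called. Their part in the result was not tested. In SAFB DKO against WT Meg3 fell, with a log2 fold change of -0.70 (SE 0.13, adjusted p = 5.76e-04), and the call held in all 15 settings tried (-0.79 to -0.42). In EZH2 KO against WT the value was -0.29 (SE 0.13, adjusted p = 0.0775), not a call. That call was made under 7 alternatives, among them DESeq2 (-0.36) and leaving out the interval with miR-770, which it shares with Mir770 (-0.77, adjusted p = 2.90e-04). SAFB DKO against EZH2 KO gave -0.41 (SE 0.14, adjusted p = 0.0178). This difference was lost with TMM over all intervals (-0.19), with DESeq2 (-0.06) and when SAFB DKO replicate 1 (-0.39) or replicate 2 (-0.34) was left out, and it turned round without the miR-770 interval (0.31, adjusted p = 0.0531) and under scaling by column totals (0.0501).

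The 13 intervals of Meg3 moved in different ways, and the gene's sum hid this. The largest, chr12:109545538-109548734, lies 4.54 kb from the start of the gene, is exonic in all 5 transcripts that span it, and took 43.7% of the gene's counts in WT. It had 257 and 251 CPM in SAFB DKO, 156 and 146 CPM in EZH2 KO, and 323, 287 and 312 CPM in WT. This upstream exon was low in EZH2 KO, where both libraries lay below all others. It fell in EZH2 KO (-1.03, SE 0.13, adjusted p = 1.21e-04) and did not pass the test in SAFB DKO (-0.27, SE 0.13, adjusted p = 0.165). The difference between the knockouts passed the test (0.75, SE 0.14, adjusted p = 5.01e-04).

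Towards the 3′ end of Meg3 the order of the groups was another. At chr12:109559483-109562250, 18.5 kb from the start and an exon of 1 of the 4 transcripts that span it, there were 47.2 and 42.3 CPM in SAFB DKO, 92.6 and 97.2 CPM in EZH2 KO, and 156, 113 and 113 CPM in WT. The interval fell in SAFB DKO (-1.51, SE 0.18, adjusted p = 1.00e-05) and was at -0.42 in EZH2 KO (SE 0.18, adjusted p = 0.107). The next interval, the 1312 bases with the miR-770 hairpin printed above, had 20.1 and 16.8 CPM in SAFB DKO, 241 and 239 CPM in EZH2 KO, and 164, 151 and 76.5 CPM in WT. It was lowest in both SAFB DKO libraries and highest in both EZH2 KO libraries, with no overlap between groups. It fell 7.05-fold in SAFB DKO (-2.82, SE 0.26, adjusted p = 5.86e-07) and rose 1.84-fold in EZH2 KO (0.88, SE 0.23, adjusted p = 0.0163), calls that held in every setting tried (-3.11 to -2.56 and 0.62 to 1.09). Between the knockouts it was 13.0-fold lower in SAFB DKO (-3.70, SE 0.28, adjusted p = 2.68e-08). WT clone 44, which had the least Safb and Safb2 RNA among the WT libraries, also had the least of this interval, and its part in the result was not tested; without it the values were -3.11 in SAFB DKO and 0.62 in EZH2 KO.

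As a share of all Meg3 counts, the miR-770 interval made up 4.30% in SAFB DKO, 41.8% in EZH2 KO and 18.8% in WT. Measured relative to Meg3 as a whole, itself included, it was lower in SAFB DKO (log2 -2.12, adjusted p = 6.01e-11) and higher in EZH2 KO (1.17, adjusted p = 2.13e-04). With each library left out in turn, these values ran from -2.32 to -1.98 and from 0.97 to 1.31. The interval just upstream was also lower relative to the gene in SAFB DKO (-0.81, adjusted p = 0.0124), though not without SAFB DKO replicate 1 (-0.86, adjusted p = 0.114), SAFB DKO replicate 2 (-0.76, adjusted p = 0.192), WT replicate 1 (-0.73, adjusted p = 0.124) or WT replicate 2 (-0.87, adjusted p = 0.0515). No other interval of Meg3 was called in SAFB DKO, where 17.5% of all 193862 tested intervals fell and 2.25% rose. In EZH2 KO, 5 of the 13 fell, all exonic, and the miR-770 interval alone rose, where 8.0% of all tested intervals fell and 7.47% rose.

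Rian (ENSMUSG00000097451.10, chr12:109603940-109661716, plus strand), the host of small nucleolar RNAs, was lower in EZH2 KO. It had 359.8 and 380 CPM in SAFB DKO, 261.1 and 260.7 CPM in EZH2 KO, and 412, 370.5 and 384.2 CPM in WT. Both EZH2 KO libraries lay below all others, whereas SAFB DKO overlapped WT. Rian fell in EZH2 KO (-0.58, SE 0.12, adjusted p = 0.00168), a call that held in all 16 settings (-1.10 to -0.52, the largest over exonic intervals only). In SAFB DKO it was at -0.07 (SE 0.12, adjusted p = 0.631), and the sign changed with the scaling (0.21 with DESeq2). The knockouts differed from each other by 0.50 (SE 0.13, adjusted p = 0.00352), and by 1.28 over exonic intervals only.

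Exonic and intronic intervals of Rian were counted apart. Of 20 tested exonic intervals, 9 fell in EZH2 KO and none was called in SAFB DKO. Of 11 tested intronic intervals, 4 fell in SAFB DKO, while 2 fell and 1 rose in EZH2 KO. The shares over all tested intervals were 17.5% falling and 2.25% rising in SAFB DKO, and 8.0% falling and 7.47% rising in EZH2 KO. In SAFB DKO the exonic intervals had a median log2 fold change of 0.15 and the intronic ones of -0.46, against -0.20 over all 193862 tested intervals. In EZH2 KO the medians were -0.90 for exonic and -0.43 for intronic intervals, against -0.19 over all tested intervals. Exonic intervals held 78.4% and 81.5% of Rian counts in SAFB DKO, 44.2% and 49.4% in EZH2 KO, and 64.9%, 65.0% and 71.8% in WT. One intronic interval, with the hairpin of miR-341, carried much of this. Without it, as computed after seeing the data, exonic intervals held 82.0% and 85.1% of Rian counts in SAFB DKO, 63.9% and 66.6% in EZH2 KO, and 73.2%, 74.0% and 78.2% in WT. The difference of the mean shares in percentage points was then 8.35 for SAFB DKO against WT, with 12.7 over all intervals, and -9.90 for EZH2 KO against WT, with -20.5 over all intervals. The groups did not overlap with or without that interval, and over all intervals each comparison with WT had an exact two-sided permutation p = 0.2, the smallest that 2 against 3 libraries allow. Meg3 had 94.1% to 96.7% of its counts in exonic intervals in every library. An interval was exonic here if it overlapped an exon of any annotated transcript. The downstream Meg3 intervals described above therefore count as exonic, the one with miR-770 among them, so the shares of Meg3 and Rian are not directly comparable.

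**Figure D3:**
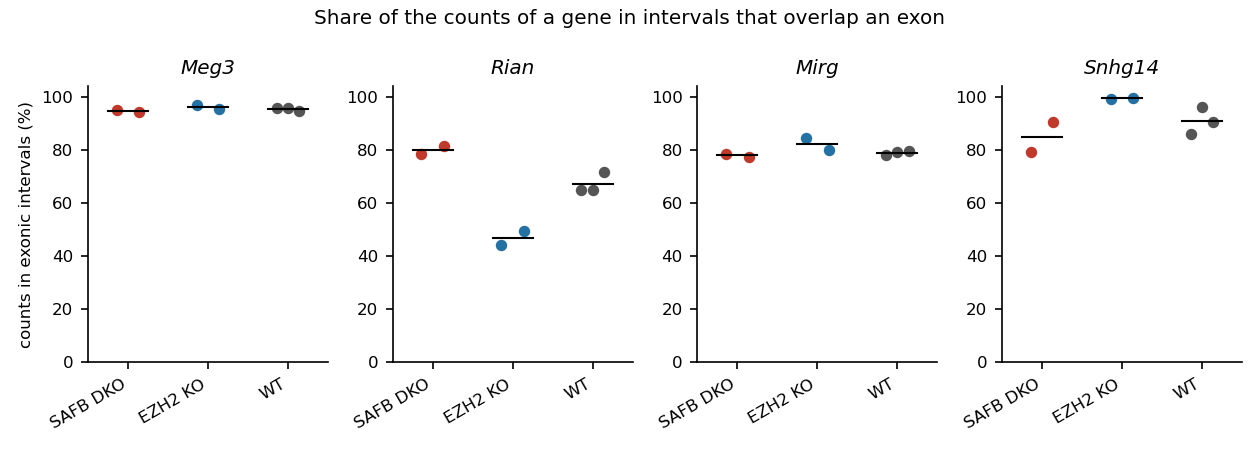
Share of counts that fell in exonic intervals, in percent, for Meg3, Rian, Mirg and Snhg14 in SAFB DKO, EZH2 KO and WT; each dot is 1 library. Rian runs from 44.2% to 81.5% over the libraries, with SAFB DKO on top and EZH2 KO at the bottom. Meg3 stays between 94.1% and 96.7%. Exonic means overlap with an exon of any annotated transcript.

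The last exonic interval of Rian, chr12:109660710-109661127, was the largest, with 23.4% of the gene's WT counts in 418 bases. It had 105 and 110 CPM in SAFB DKO, 29.6 and 33.2 CPM in EZH2 KO, and 97.3, 84.0 and 92.0 CPM in WT. EZH2 KO lay below and SAFB DKO just above every WT library. The interval fell in EZH2 KO (-1.54, SE 0.17, adjusted p = 3.59e-05) and was at 0.24 in SAFB DKO (SE 0.17, adjusted p = 0.333), where column totals (0.47) and DESeq2 (0.50) gave a rise. A short exon at chr12:109654344-109654421, chosen after its values were seen, had 65 and 56 counts in SAFB DKO, none in either EZH2 KO library, and 39, 38 and 58 in WT. Taking 3 counts over the group as a floor, it was at least 9.55-fold lower in EZH2 KO than in WT and at least 13.0-fold lower than in SAFB DKO. The small nucleolar RNAs of Rian are processed from its introns, and their own levels were not analysed here.

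The intronic interval of Rian with the hairpins of miR-341 and miR-1188 followed the miR-770 interval of Meg3. It had 15.6 and 16.1 CPM in SAFB DKO, 80.7 and 67.3 CPM in EZH2 KO, and 46.7, 45.2 and 31.6 CPM in WT. Again SAFB DKO was lowest and EZH2 KO highest, without overlap. It fell in SAFB DKO (-1.38, SE 0.21, adjusted p = 1.19e-04) and rose in EZH2 KO (0.85, SE 0.20, adjusted p = 0.00843), and the calls held in every setting (-1.56 to -1.12 and 0.62 to 0.96). Its share of Rian counts was 4.29% in SAFB DKO, 28.4% in EZH2 KO and 10.7% in WT. Relative to the whole gene it was lower in SAFB DKO (-1.30, adjusted p = 2.43e-05) and higher in EZH2 KO (1.42, adjusted p = 7.63e-06). The knockouts differed by -2.22 (SE 0.23, adjusted p = 8.34e-07). The fall in SAFB DKO was not confined to the hairpin interval. The intronic intervals at 109613170 and 109615140, without a hairpin, were also lower relative to the gene there. Over the settings they ran from -1.77 to -0.80 and from -1.11 to -0.76, and both calls were lost in some. Against EZH2 KO both were lower in every setting (-2.47 to -1.49 and -1.82 to -1.05).

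Another large interval of Rian, the intronic chr12:109608033-109609831, was lower in both knockouts. It had 24.95 and 22.3 CPM in SAFB DKO, 22.1 and 25.6 CPM in EZH2 KO, and 42.8, 38.1 and 34.1 CPM in WT. All knockout libraries lay below all WT libraries. It fell in SAFB DKO (-0.70, SE 0.19, adjusted p = 0.0163) and in EZH2 KO (-0.68, SE 0.20, adjusted p = 0.0291). The SAFB DKO call was lost with column totals (-0.47), with DESeq2 (-0.44) and without SAFB DKO replicate 1 (-0.79), SAFB DKO replicate 2 (-0.65), WT replicate 1 (-0.62) or WT replicate 2 (-0.71). The EZH2 KO call was lost without EZH2 KO replicate 1 (-0.65) or any 1 of the WT replicates (-0.58, -0.67 and -0.75).

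**Figure D4:**
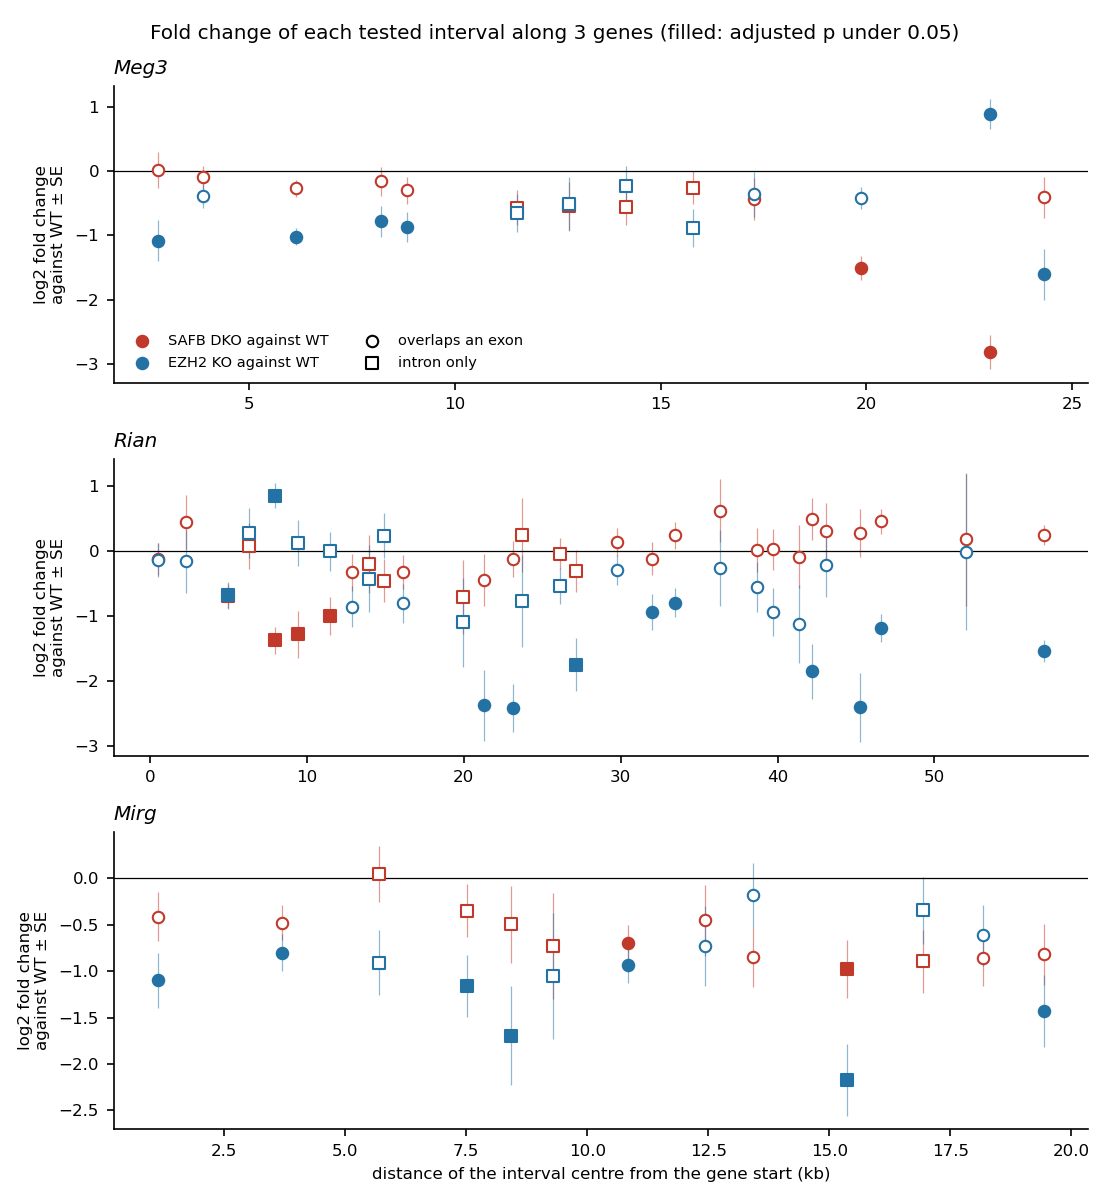
Log2 fold change of each tested interval of Meg3, Rian and Mirg along the gene, with distance from the gene start in kb on the x axis, for SAFB DKO and EZH2 KO against WT. Circles are exonic, squares intronic, and filled symbols passed an adjusted p under 0.05. In Meg3 the interval 22.3 kb from the start stands at -2.82 in SAFB DKO and 0.88 in EZH2 KO; 1 Rian interval with no counts in EZH2 KO is left out.

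Mirg (ENSMUSG00000097391.8, chr12:109729764-109749460, plus strand), which carries a cluster of microRNAs, was lower in both knockouts. It had 97.9 and 122 CPM in SAFB DKO, 92.2 and 82.4 CPM in EZH2 KO, and 167, 159 and 166 CPM in WT. All 4 knockout libraries lay below the WT libraries. Mirg fell in SAFB DKO (-0.58, SE 0.14, adjusted p = 0.00345), but not with DESeq2 (-0.30, adjusted p = 0.0685) or without SAFB DKO replicate 1 (-0.43, adjusted p = 0.0623). It fell in EZH2 KO (-0.91, SE 0.14, adjusted p = 2.23e-04), in all 16 settings (-1.16 to -0.85). The knockouts were not called apart (0.33, SE 0.15, adjusted p = 0.0632), though 6 alternatives called the difference, DESeq2 with 0.68 among them.

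The intervals of Mirg moved with the gene in EZH2 KO, where 7 of 13 fell and none rose, beside 8.0% and 7.47% of all tested intervals. The miR-377 interval had 26.5 and 32.9 CPM in SAFB DKO, 25.3 and 25 CPM in EZH2 KO, and 44.8, 46.1 and 53.1 CPM in WT. It fell in EZH2 KO (-0.93, SE 0.19, adjusted p = 0.00425) and in SAFB DKO (-0.69, SE 0.19, adjusted p = 0.014). The SAFB DKO call was lost with column totals (-0.47), DESeq2 (-0.43), without SAFB DKO replicate 1 (-0.55) and without WT replicate 3 (-0.64). The interval with miR-134 and miR-382, chr12:109732191-109734723, had 28.0 and 37.4 CPM in SAFB DKO, 26.2 and 26.1 CPM in EZH2 KO, and 49.1, 42.4 and 45.1 CPM in WT. It fell in EZH2 KO (-0.80, adjusted p = 0.0121), not without WT replicate 1 (-0.73, adjusted p = 0.0753), and was at -0.48 in SAFB DKO (adjusted p = 0.0902). Unlike the hairpin intervals of Meg3 and Rian, neither rose in EZH2 KO. Near the start of Mirg, chr12:109730516-109731280 had 7.53 and 9.04 CPM in SAFB DKO, 6.46 and 3.77 CPM in EZH2 KO, and 11.8, 10.8 and 10.4 CPM in WT. It fell in EZH2 KO (-1.10, adjusted p = 0.0209), a call lost without EZH2 KO replicate 2 (-0.83), WT replicate 1 (-1.03), WT replicate 2 (-1.10) or WT replicate 3 (-1.12).

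H19 (ENSMUSG00000000031.16, chr7:142575529-142578143, minus strand), the maternally expressed RNA of the Igf2 cluster, was higher in both knockouts. All of its counts came from 1 interval, chr7:142575534-142577954, which also contains the miR-675 hairpin. H19 had 470 and 322.6 CPM in SAFB DKO, 483.9 and 555.1 CPM in EZH2 KO, and 256.8, 271.3 and 331.7 CPM in WT. EZH2 KO lay above every WT library, whereas SAFB DKO clone 4, at 322.6, lay below WT clone 44. H19 rose in EZH2 KO (0.86, SE 0.17, adjusted p = 0.00102), in all 15 settings (0.61 to 0.99). It rose in SAFB DKO (0.47, SE 0.17, adjusted p = 0.0316), but 1 library decided that call: without SAFB DKO replicate 1 the value was 0.16 (adjusted p = 0.491). The call was also lost without WT replicate 1 (0.38, adjusted p = 0.133) or WT replicate 2 (0.42, adjusted p = 0.111). The knockouts were not called apart (-0.39, SE 0.18, adjusted p = 0.0737), except without SAFB DKO replicate 1 (-0.63) or WT replicate 3 (-0.43).

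Igf2, which encodes the growth factor expressed from the paternal allele beside H19, had 29.7 CPM in SAFB DKO, 103 CPM in EZH2 KO and 51.5 CPM in WT. It fell in SAFB DKO (-0.79) and rose in EZH2 KO (1.00). H19 is abundant in extraembryonic tissue, and the summed trophoblast markers were higher in EZH2 KO than in WT. Of 6 such markers 5 were counted, with no interval for Elf5, and Cdx2 was at 0.601 CPM or less in every library. Their summed level was 91.1 to 92.9 CPM in SAFB DKO, 145 to 162 CPM in EZH2 KO and 72.1 to 99.5 CPM in WT, most of it from Tfap2c. Of the 4 that were tested, 2 rose and none fell in EZH2 KO. In SAFB DKO, where H19 also rose, 1 rose and 2 fell (median log2 fold change -0.73). The part of these markers in the H19 result was not tested.

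Snhg14 (ENSMUSG00000100826.6, chr7:59307924-59975759, minus strand), the paternal transcript that extends over Ube3a, was counted almost only near its start. Its annotated span was 668 kb, yet its 8 intervals covered 3.27 kb, and the 2 largest, both exonic and 1.66 and 5.17 kb from the start, held 47.3% and 42.7% of its WT counts. Snhg14 had 18.9 and 28.7 CPM in SAFB DKO, 16.1 and 41.2 CPM in EZH2 KO, and 31.2, 42.7 and 44.5 CPM in WT. The SAFB DKO libraries were below all WT libraries, and the EZH2 KO libraries differed from each other by more than any other pair of replicates of this gene. Neither comparison with WT was called (SAFB DKO -0.73, SE 0.30, adjusted p = 0.0592, and EZH2 KO -0.46, SE 0.31, adjusted p = 0.238). In SAFB DKO 5 alternatives called it, for example a fit of the 2 groups alone (-0.74, adjusted p = 0.00349) and without SAFB DKO replicate 2 (-1.09), EZH2 KO replicate 1 (-0.74), EZH2 KO replicate 2 (-0.74) or WT replicate 1 (-0.89). In EZH2 KO it was called without EZH2 KO replicate 2 (-1.36) and with column totals (-0.76).

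The interval of Snhg14 nearest its start, chr7:59972905-59974098, had 8.62 and 12.6 CPM in SAFB DKO, 12.5 and 22.7 CPM in EZH2 KO, and 15.1, 21.1 and 19.7 CPM in WT. It fell in SAFB DKO (-0.81, SE 0.27, adjusted p = 0.0453), without overlap with WT, and was at -0.09 in EZH2 KO (adjusted p = 0.872). The fall was not called under 7 of 12 alternatives, among them DESeq2 (-0.55), without SAFB DKO replicate 1 (-0.57) and without each WT replicate (-0.96, -0.72 and -0.80). The other large one, chr7:59969912-59970593, had 6.20 and 12.3 CPM in SAFB DKO, 3.46 and 18.1 CPM in EZH2 KO, and 11.2, 19.4 and 20.1 CPM in WT, and was called in neither knockout. An intronic interval, chr7:59960969-59961440, had 68 and 38 counts in SAFB DKO, 1 and 0 counts in EZH2 KO, and 54, 20 and 50 counts in WT. It fell in EZH2 KO (adjusted p = 0.00868), and with so few counts no fold is given. Exonic intervals held 79.3% and 90.4% of Snhg14 counts in SAFB DKO, 99.1% and 99.6% in EZH2 KO, and 85.8%, 96.3% and 90.3% in WT.

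Peg13 (ENSMUSG00000106847.1, chr15:72805600-72810324, minus strand), a paternally expressed noncoding RNA within Trappc9, moved in opposite directions in the knockouts. It had 3.79 and 3.71 CPM in SAFB DKO, 17.3 and 15.4 CPM in EZH2 KO, and 8.55, 7.95 and 7.36 CPM in WT. SAFB DKO lay below and EZH2 KO above every WT library. Peg13 fell 2.12-fold in SAFB DKO (-1.08, SE 0.23, adjusted p = 0.00182) and rose 2.05-fold in EZH2 KO (1.04, SE 0.22, adjusted p = 0.00201). Between the knockouts it was 4.35-fold lower in SAFB DKO (-2.12, SE 0.26, adjusted p = 7.65e-06), the largest difference among the members. All 3 calls held in every setting tried.

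Peg13 could not be separated from its host, since all 3 of its intervals also lie in Trappc9, transcribed from the same strand. Trappc9, which encodes a subunit of a vesicle-tethering complex, had 66.2 CPM in SAFB DKO, 365 CPM in EZH2 KO and 176 CPM in WT. Without the Peg13 intervals Trappc9 fell in SAFB DKO (-1.43, SE 0.15, adjusted p = 4.22e-06) and rose in EZH2 KO (1.05, SE 0.14, adjusted p = 7.00e-05), values close to those of Peg13. The largest Peg13 interval, chr15:72807057-72808584, had 2.37 and 2.58 CPM in SAFB DKO, 11.1 and 7.71 CPM in EZH2 KO, and 5.01, 4.42 and 3.65 CPM in WT. It rose in EZH2 KO (1.11, SE 0.31, adjusted p = 0.0248) and was at -0.82 in SAFB DKO (adjusted p = 0.0911). That rise was lost with column totals (0.89), without EZH2 KO replicate 1 (0.75) and without each WT replicate (1.24, 1.13 and 1.01). The second, chr15:72808889-72809729, had 1.28 and 0.861 CPM in SAFB DKO, 3.91 and 6.92 CPM in EZH2 KO, and 2.57, 2.49 and 2.77 CPM in WT. It fell in SAFB DKO (-1.27, adjusted p = 0.0447), a call lost in 9 of 12 alternatives, among them leaving out any 1 SAFB DKO or WT library (-1.60, -1.06, -1.30, -1.32 and -1.26). The third had 3 and 5 counts in SAFB DKO, 15 and 5 counts in EZH2 KO, and 21, 22 and 18 counts in WT, and was called in neither comparison with WT.

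Peg3 (ENSMUSG00000002265.16, chr7:6703892-6730431, minus strand), the protein-coding member, was not called against WT in either knockout. It had 819.3 and 639.9 CPM in SAFB DKO, 1023 and 1138 CPM in EZH2 KO, and 877.4, 778 and 899.9 CPM in WT. EZH2 KO lay above every WT library, and SAFB DKO overlapped WT. The log2 fold change was -0.22 in SAFB DKO (SE 0.14, adjusted p = 0.191) and 0.34 in EZH2 KO (SE 0.14, adjusted p = 0.0505). The EZH2 KO value sits at the threshold and was called in 3 alternatives, such as a fit of the 2 groups alone (0.35, adjusted p = 0.0328). The others, exonic intervals only (0.34, adjusted p = 0.0425) and intervals of 1 gene only, left the Peg3 counts as they were. All 11 Peg3 intervals are exonic and lie in no other gene, so only the other genes of the fit changed. SAFB DKO was lower than EZH2 KO (-0.57, SE 0.15, adjusted p = 0.00414), except with column totals (-0.10), with DESeq2 (-0.21) and without SAFB DKO replicate 2 (-0.36).

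Most Peg3 counts came from 1 large exonic interval, chr7:6707478-6711947, with 69.5% of the gene's counts in SAFB DKO, 81.6% in EZH2 KO and 77.0% in WT. It had 572 and 442 CPM in SAFB DKO, 842 and 922 CPM in EZH2 KO, and 682, 594 and 692 CPM in WT, so SAFB DKO lay below and EZH2 KO above WT. It rose in EZH2 KO (0.43, SE 0.13, adjusted p = 0.0317) and was at -0.37 in SAFB DKO (SE 0.13, adjusted p = 0.052). In SAFB DKO 5 alternatives called a fall, among them no filter (-0.37, adjusted p = 0.0310) and a fit of the 2 groups alone (-0.39, adjusted p = 0.0122). The others left out SAFB DKO replicate 1 (-0.58) or 1 of the EZH2 KO replicates (-0.39 and -0.38). The rise in EZH2 KO was lost in 8 of 13 alternatives, among them column totals (0.18), EZH2 KO replicate 2 left out (0.30) and each WT replicate left out (0.47, 0.37 and 0.48). Further 3′, chr7:6705222-6705733 went the other way, with 79.6 and 69.9 CPM in SAFB DKO, 42.1 and 49.9 CPM in EZH2 KO, and 54.8, 51.0 and 62.3 CPM in WT. It was higher in SAFB DKO than in EZH2 KO (0.70, adjusted p = 0.00834), while the comparisons with WT were not called (0.42 in SAFB DKO and -0.28 in EZH2 KO). For SAFB DKO (adjusted p = 0.102), however, 6 alternatives called a rise: TMM over all intervals (0.50), column totals (0.64, adjusted p = 0.00546), DESeq2 (0.67, adjusted p = 0.00319), a fit of the 2 groups alone (0.40), and each EZH2 KO replicate left out (0.40 and 0.41). In EZH2 KO column totals called a fall (-0.53, adjusted p = 0.0284). The interval near the start, chr7:6723498-6726606, had 76.5 and 53.3 CPM in SAFB DKO, 78.6 and 112 CPM in EZH2 KO, and 69.4, 69.4 and 74.7 CPM in WT, and was called in neither comparison with WT.

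**Figure D5:**
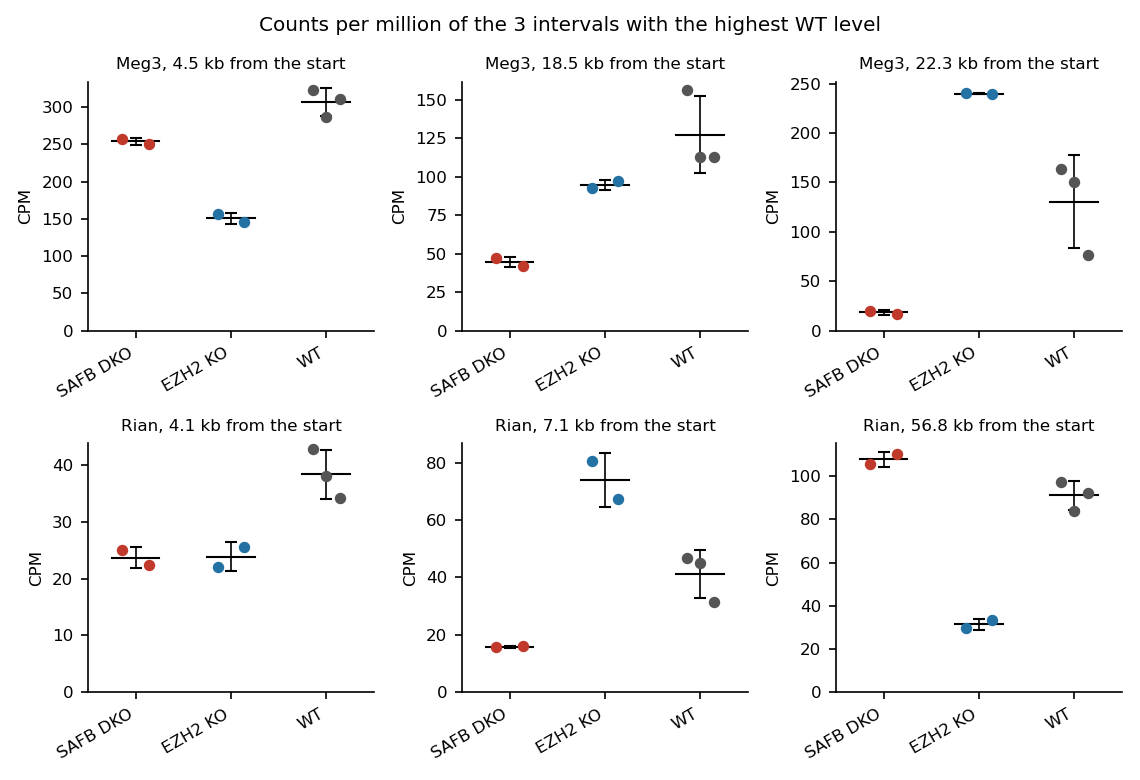
Normalised level in CPM of the 3 largest intervals of Meg3 and of Rian in SAFB DKO, EZH2 KO and WT; each dot is 1 library, the bar is the mean and the error bars are the SD. The Meg3 interval 22.3 kb and the Rian interval 7.1 kb from the gene start, both with microRNA hairpins, are lowest in SAFB DKO and highest in EZH2 KO, and the Rian interval 56.8 kb from the start is lowest in EZH2 KO.

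Over all members, 10 of 78 tested intervals fell and 1 rose in SAFB DKO, where 17.5% of all tested intervals fell and 2.25% rose. In EZH2 KO 25 of the 78 fell and 5 rose, against a background of 8.0% falling and 7.47% rising. Most of these falls lay in 1 cluster, with 5 in Meg3, 11 in Rian and 7 in Mirg, beside 1 in Snhg14 and 1 in Peg3. The rises were 1 each in Meg3, Rian, H19, Peg13 and Peg3. Intervals of the same gene are not independent of each other, so the share is not a trait of all members. In SAFB DKO against EZH2 KO, 10 were lower and 19 higher, where 39.9% of all tested intervals differed, 23.5% lower and 16.5% higher. Relative to their whole gene, 5 of 74 intervals were lower and none higher in SAFB DKO (4.98% and 4.11% of all tested, 9.08% together). In EZH2 KO 12 were lower and 2 higher (7.71% and 1.47%, 9.18% together), the 2 being the hairpin intervals of Meg3 and Rian. Between SAFB DKO and EZH2 KO, 6 were lower and 21 higher (9.22% and 22.4% of all tested, 31.6% together). The number of calls in SAFB DKO depended on the libraries: 4 intervals passed when either WT replicate 1 or WT replicate 2 was left out, and 23 passed without an EZH2 KO replicate.

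Intervals with hairpins moved in both directions. Of the 7 hairpin intervals of the members, 3 fell and 1 rose in SAFB DKO, and 2 fell and 3 rose in EZH2 KO. Among all 153 tested intervals with an annotated microRNA hairpin, 26 fell and 24 rose in SAFB DKO, and 28 fell and 18 rose in EZH2 KO. The motif GAAGA, a purine-rich sequence of the kind reported for SAFB, was counted on the RNA strand with overlapping matches allowed in the 8 member intervals of at least 300 bases that lie wholly within an exon. The 2 downstream Meg3 intervals that fell in SAFB DKO held 19 and 9 copies, 6.86 per kb each. The Meg3 exon at chr12:109544626-109545154, which was not called in either knockout, held 0. Among 11950 such intervals of the whole table the density was 2.29 per kb, and 43.8% of their central 300 bases held the motif. In Peg3, the interval at chr7:6705222-6705733 held 4 copies, 7.81 per kb, and in SAFB DKO was called as a rise under some scalings only. In Rian, the exon at chr12:109650022-109651033 held 5 copies, 4.94 per kb, and the one at chr12:109633050-109634395 held 3, 2.23 per kb, and neither was called in SAFB DKO (0.45 and 0.13). The Peg13 intervals held 3 and 1, or 1.96 and 1.19 per kb. The one with 1 copy, chr15:72808889-72809729, was called as a fall in SAFB DKO, and the other was not called there.

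Genes around the members and imprinted genes elsewhere moved in both directions. Of 28 tested neighbours in the same clusters, 10 fell and 2 rose in SAFB DKO (median -0.37) and 5 fell and 10 rose in EZH2 KO (median 0.11), beside the shares and medians of all tested genes given above. Mir770, whose counts are those of the Meg3 interval, and Trappc9, which includes the Peg13 intervals, are among them. In the chromosome 12 cluster Dlk1, a membrane protein gene of the paternal allele, had 1.84 CPM in SAFB DKO, 0.0752 CPM in EZH2 KO and 2.16 CPM in WT, and was called as a fall in EZH2 KO on 1 count in all. Its neighbour Begain, which encodes a synaptic protein, fell there as well (-2.01, 1.23 CPM in EZH2 KO and 4.97 CPM in WT). On chromosome 7, Snurf, which shares transcripts with Snrpn at the start of the Snhg14 cluster, fell in EZH2 KO (-2.24, 3.73 CPM in EZH2 KO and 17.5 CPM in WT), and Mkrn3 rose (1.77, 12.1 CPM in EZH2 KO and 3.54 CPM in WT). Beside Peg3, the zinc finger gene Zfp264 rose in EZH2 KO (2.12, 30.6 CPM in EZH2 KO and 7.03 CPM in WT) and was at -0.10 in SAFB DKO, not called. Ube3a, the ubiquitin ligase gene over which Snhg14 extends, fell in SAFB DKO (-0.58, 127 CPM in SAFB DKO and 190 CPM in WT) and was at -0.30 in EZH2 KO, not called.

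Of 31 tested imprinted genes in other clusters, 11 fell and 4 rose in SAFB DKO (median -0.26), and 8 fell and 7 rose in EZH2 KO (median 0.06). The background for SAFB DKO was 35.2% of tested genes falling and 14.9% rising, and for EZH2 KO 21.8% falling and 26.1% rising. Kcnq1, a potassium channel gene, had 0.928 CPM in SAFB DKO, 22.7 CPM in EZH2 KO and 6.30 CPM in WT, a fall in SAFB DKO (-2.75) and a rise in EZH2 KO (1.85). Mcts2 (-2.42 and 0.61) and H13 (-1.70 and 0.47), which overlap each other, had the same directions. An interval in such an overlap counts for each gene on its strand, so these genes may share counts and are not separate cases. Phlda2 (-2.77) and Grb10 (-1.79), both growth-restraining genes of the maternal allele, fell in EZH2 KO and were not called in SAFB DKO. Plagl1, a zinc finger gene, fell in both knockouts (-1.83 in SAFB DKO and -0.55 in EZH2 KO).

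Among 18 tested factors that maintain imprints, 9 fell and 7 rose in SAFB DKO, with a median of -0.15, and 9 fell and 5 rose in EZH2 KO, with a median of -0.36, beside those same shares of all tested genes. Aff3, which is known to bind imprinted control regions, fell in both, with 72.3 CPM in SAFB DKO, 210 CPM in EZH2 KO and 316 CPM in WT (-2.13 and -0.59). Zfp445, a zinc finger protein gene for imprint maintenance, fell in SAFB DKO (-1.77) and rose in EZH2 KO (0.88), as did Tet3 (-1.42 and 0.65) and Arid4a (-1.27 and 0.34). Trim28, the corepressor that such zinc finger proteins recruit, rose in SAFB DKO (0.69) and fell in EZH2 KO (-1.13), as did Dppa3 (0.94 and -1.22), which guards maternal methylation marks.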

How the data were processed

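RNA precipitated with an EZH2 antibody was sequenced from 7 libraries of 3 genotypes, made with a kit that depletes ribosomal RNA (9 µL of the precipitate, 1 µL of ERCC controls), per the labels' protocols. The authors deposited counts, whole numbers of reads per interval, not normalized. Per the file headers, they counted with featureCounts 2.0.3 in reverse-stranded mode, and the build was mm10, per the submitters' processing notes. No source used here names the aligner or the peak caller. The deposited peak lists (other values: interval widths) served to mark intervals. Another 3 value columns, named for a control antibody, were not used.

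Gene counts were sums over every interval that overlapped the GENCODE M21 gene on its strand. Library sizes were column totals times TMM factors from intervals outside the filtered list (0.761 to 1.18). edgeR 4.0.16 in R 4.3.3 fitted all 7 libraries by group (filterByExpr, quasi-likelihood F-test), over 19518 genes and 193862 intervals. "Rose" and "fell" mean a Benjamini-Hochberg adjusted p under 0.05 over all of them, and log2 fold changes carry their SE. An interval relative to its gene was tested with diffSpliceDGE over 156246 intervals, an analysis chosen after seeing the data. The value of the gene there includes the interval itself, so a large interval also shifts the values of the others. The steps were tested on simulated data. CPM are edgeR's, mean ± SD. Counting error only is covered by the floor of 3 counts over a group. Figures used matplotlib 3.10.9.

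Alternatives were TMM over all intervals, column totals, DESeq2 1.42.0, no filter, each library left out, only the groups compared, a replicate block, intervals of 1 gene only and exonic intervals only. Named intervals were the 3 with the highest WT mean per member, and up to 6 genes per list by fold change. Members, lists and rules were chosen with earlier results of these data known. The genes most like Mirg are not reported here.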

Additional observations from a re-analysis of the deposited data

How the results depend on the processing

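The number of members called in SAFB DKO against WT was 4 and ran from 2 to 5 when each library was left out. It was 2 with intervals of 1 gene only, where 5 members had an interval left. In EZH2 KO against WT it was 4 (4 to 5), and in SAFB DKO against EZH2 KO 4 (2 to 6). Called intervals numbered 11 (4 to 23) in SAFB DKO against WT and 25 in a fit of the 2 groups alone. They numbered 30 (13 to 34) in EZH2 KO against WT. In SAFB DKO against EZH2 KO they numbered 29 (23 to 32), 46 with column totals and 18 with the 2 groups alone. Relative to their gene they numbered 5 (2 to 11), 14 (6 to 17) and 27 (20 to 28) in the same order of comparisons.

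Against the main scaling, the median of all genes in SAFB DKO against WT moved by 0.09 (TMM over all intervals), 0.23 (column totals) and 0.28 (DESeq2), and in EZH2 KO against WT by -0.13, -0.25 and -0.08. The share of falls among all called genes in SAFB DKO was 70.2%, and 54.3% with column totals and 52.1% with DESeq2; in EZH2 KO it was 45.6%, and 61.6% with column totals. In SAFB DKO against EZH2 KO it was 59.9%, and 47.8% with column totals. Of the members, 4 fell and 2 rose in EZH2 KO with column totals, against 2 and 2; member intervals in SAFB DKO split into 4 falls and 5 rises with column totals and with DESeq2, against 10 and 1.

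Among the values whose sign turned round, only Meg3 in SAFB DKO against EZH2 KO had been called. In SAFB DKO against WT, Rian became 0.0168 with TMM over all intervals, 0.15 with column totals, 0.21 with DESeq2, 0.0177 with intervals of 1 gene only and 0.18 with exonic intervals. Peg3 became 1.59e-04 with column totals and 0.0538 with DESeq2, and its interval at 6723498 became 0.0918 and 0.12 there and ran from -0.42 to 0.0768 with each library left out. In SAFB DKO against EZH2 KO with column totals, Meg3 became 0.0501, H19 0.0800, its interval 0.0797 and Snhg14 0.25, and Meg3 became 0.31 with intervals of 1 gene only. Snhg14 there became 0.13 with DESeq2 and ran from -0.74 to 0.62 with each library left out. Its interval at 59969912 became 0.0154 with TMM over all intervals, 0.32 with column totals and 0.0639 with DESeq2, with a leave-one-out range of -0.92 to 1.47, called at both ends (without EZH2 KO replicate 1 and without EZH2 KO replicate 2). The Rian interval at 109608033 became 0.21, 0.46 and 0.23 under the same scalings, with a range of -0.0637 to 0.15. In EZH2 KO against WT, the leave-one-out ranges were -0.64 to 0.22 and -2.35 to 0.0341 for the Snhg14 intervals at 59972905 and 59969912 and -0.38 to 1.13 for the Peg13 interval at 72806486, with the change of sign in each without EZH2 KO replicate 1 (and, for the first, without WT replicate 2, 0.0274). The cause was not tested. With 1 sample left in a group, that sample is assumed to vary like the others.

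WT and EZH2 KO share replicate numbers only as numbers: deviations of same-numbered libraries correlated at 0.0918 and 0.00618. With the number as a replicate block, 4 members and 20 of their intervals were called in EZH2 KO against WT, and the calls of the Snhg14 interval at 59960969 (adjusted p = 0.059) and of the largest Peg13 (0.98) and Peg3 (0.47) intervals were lost. The lower depth of EZH2 KO limits intervals with few counts most.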

Other observations

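Some genes outside the member spans had profiles shaped much like a member's over the 7 libraries (Pearson r of log2(CPM + 1)). The r does not compare the size of a change. In EZH2 KO against WT, Cnn1 was at -9.05 and Rian at -0.58, whereas in SAFB DKO against WT Alg2 was at -1.07 and Peg13 at -1.08. The points share libraries, depth and scaling, and the 3 highest r among all tested genes are given for each member except Mirg. Meg3 was most like Arnt2 (r = 0.986), Ntn1 (0.986) and Tro (0.981), and Rian like Cnn1 (0.990), Kif1a (0.989) and Tfeb (0.986). H19 was most like Esx1 (0.988), Sap30bp (0.977) and Sytl3 (0.976). For Snhg14 they were Yipf5 (0.972), Ube3a (0.972) and Rab10 (0.971), of which Ube3a lies under Snhg14 on the other strand. Peg13 was most like P2rx7 (0.999), Alg2 (0.999) and Gm17435 (0.998), and Peg3 like Eme1 (0.981), Gm13610 (0.980) and Mrpl13 (0.977).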
